A study of Mus musculus with 6 samples.

Results

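Polycomb repressive complexes were followed in mouse embryonic stem (ES) cells through 10 genes chosen by name: the PRC2 genes Ezh2, Eed, Suz12, Jarid2, Aebp2 and Mtf2, and the PRC1 genes Rnf2, Ring1, Pcgf6 and Kdm2b. All 10 are among the 10128 genes of the authors' deposited table, which compares 3 libraries of Tex19.1-/- cells with 3 libraries of Tex19.1+/- cells by RNA sequencing. Both groups derive from the E14Tg2a line of 129/Ola background, were grown in serum with leukaemia inhibitory factor and were used at passages 12 to 18. The controls are heterozygous, so they also lack a working copy of Tex19.1, and the labels do not say whether the libraries of a genotype came from separate clones or cultures; the p-values may therefore measure technical spread only.

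Polycomb complexes keep developmental genes silent by modifying histones at CpG islands. PRC2 trimethylates histone H3 through the methyltransferase EZH2 or its paralog EZH1, held in an active complex by EED and SUZ12, while PRC1 ubiquitinates histone H2A through RING1B, the product of Rnf2, or its paralog RING1. In ES cells both complexes occupy the promoters of many lineage genes, and loss of PRC2 disturbs differentiation more than self-renewal.

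The table gives 1 log2 fold change, 1 mean expression level, 1 p-value and 1 false discovery rate (adjusted p) per gene. Values of single libraries were not used here, so the depth per library is unknown, and neither a level per library nor the overlap of the groups can be stated. The header does not name the direction. Since Tex19.1 itself has the lowest log2 fold change of the authors' deposited table, -6.92, a negative value was taken to mean less transcript in Tex19.1-/- cells. The 95% intervals below are those that a gene's fold change and p-value imply under a normal approximation.

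Of the 10 Polycomb genes, 5 were lower in Tex19.1-/- cells, 1 was higher and 4 missed the threshold of 0.05 on the authors' deposited adjusted p. These counts stand against a high background: 51.7% of all genes passed, 26.5% lower and 25.2% higher. Among genes of at least 16 CPM (counts scaled to the size of the library), a level that 9 of the 10 reach, 51.7% passed as well. The share of 6 in 10 is close to that background and is no result about Polycomb genes as a class. Their median log2 fold change was -0.08, beside 0.00 for all genes, and their median size of change was 0.12, beside 0.11. None of the 10 changed by as much as 2-fold, a size that 148 of all 10128 genes reached. Kdm2b and Rnf2 changed by at least 0.2 on the log2 scale. These 2 in 10 stand near the share of all genes, 29.2%, and of genes of at least 16 CPM, 23.9%.

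**Figure D1:**
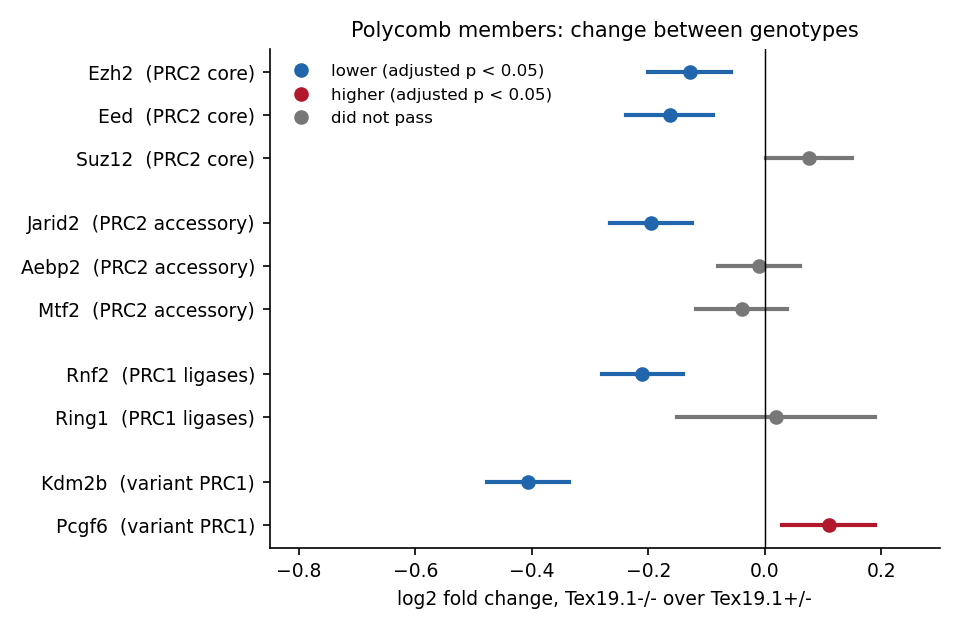
Log2 fold change of each of the 10 Polycomb genes (points) with the 95% interval that the authors' p-value implies (bars), by role in the complexes. Kdm2b lies farthest from 0 at -0.41, and Pcgf6 at 0.11 is the member called higher.

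The promoter stretches of 3 genes that fell and of the 1 that rose are printed to show the CpG-rich starts that these genes share. They are RefSeq sequences of build GRCm38.p6, the 250 bases before an annotated start, written 5' to 3' on the gene's strand, with each CG dinucleotide in capitals. The Kdm2b stretch is chr5:122900368-122900617 (minus strand), that of Rnf2 chr1:151500992-151501241 (minus strand), that of Jarid2 chr13:44730524-44730773 (plus strand) and that of Pcgf6 chr19:47050907-47051156 (minus strand).
Kdm2b: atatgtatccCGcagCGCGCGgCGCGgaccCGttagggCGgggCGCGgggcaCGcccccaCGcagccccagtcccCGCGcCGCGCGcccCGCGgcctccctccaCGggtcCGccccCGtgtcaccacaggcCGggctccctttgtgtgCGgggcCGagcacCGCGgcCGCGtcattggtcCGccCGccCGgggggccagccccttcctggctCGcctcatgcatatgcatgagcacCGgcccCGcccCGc
Rnf2: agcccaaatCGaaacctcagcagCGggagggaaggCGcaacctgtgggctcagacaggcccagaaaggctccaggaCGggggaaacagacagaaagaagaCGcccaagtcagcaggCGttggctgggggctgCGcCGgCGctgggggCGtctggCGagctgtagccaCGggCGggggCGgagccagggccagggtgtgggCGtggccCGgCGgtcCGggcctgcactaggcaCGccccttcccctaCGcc
Jarid2: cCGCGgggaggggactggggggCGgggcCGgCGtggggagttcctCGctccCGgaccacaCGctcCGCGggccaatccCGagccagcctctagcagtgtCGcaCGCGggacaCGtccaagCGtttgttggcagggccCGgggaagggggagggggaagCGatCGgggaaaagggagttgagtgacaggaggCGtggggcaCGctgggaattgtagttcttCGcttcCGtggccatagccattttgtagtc
Pcgf6: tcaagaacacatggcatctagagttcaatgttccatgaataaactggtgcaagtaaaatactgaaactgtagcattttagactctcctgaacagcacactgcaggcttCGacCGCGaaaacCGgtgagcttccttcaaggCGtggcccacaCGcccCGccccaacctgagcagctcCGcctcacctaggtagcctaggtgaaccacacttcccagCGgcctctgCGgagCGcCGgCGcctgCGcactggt
These stretches hold 36 CG dinucleotides for Kdm2b, 20 for Rnf2, 23 for Jarid2 and 14 for Pcgf6.

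All 10 genes had at least 1 RefSeq window, 17 windows in all, each running from 250 bases before a start to 50 after it. Of these 17 windows, 14 held more than 7 CG dinucleotides, the median of 32851 such windows across the genome, and each of the 10 genes had at least 1 window above it. The Kdm2b window around the printed stretch held 47, a count that 1.44% of all windows reach. The other Kdm2b windows held 49, 28 and 18, counts that 1.02%, 14.2% and 29.7% of all windows reach. The CG count did not separate called genes from the others: Suz12 had 41 and Ring1 37, beside 31 for Ezh2 and 17 for Eed, and the 3 windows of Aebp2 had 4, 21 and 4. The letters GGGCGG, searched on both strands, stood in 12 of the 17 windows and in 35.7% of all windows. CCAAT, searched likewise, stood in 9 of the 17 and in 37.4% of all windows. The windows are not separate units, since those of Kdm2b at 122900301-122900600 and 122900318-122900617 share most of their bases. The background was not matched for CG count, so no enrichment of these letters can be read from the counts. Kdm2b has 4 annotated starts, which lie up to 88.7 kb apart. The table holds 1 row for the gene, so changes of its transcripts cannot be told apart.

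Kdm2b, on chromosome 5 from 122870665 to 122989823 (GRCm38, minus strand), showed the largest change of the 10. Its protein binds unmethylated CpG islands through a zinc finger and brings the variant complex PRC1.1 to them. The mean level was 206 CPM and the log2 fold change -0.41 (95% interval -0.48 to -0.34, adjusted p = 2.02e-28, authors' deposited table), a change of -24.6%. Of the 299 genes nearest to it in mean level, 17 (5.69%) had a change of at least that size. Among the 10 measured genes that flank it, 5 were lower and 1 higher, with a median of -0.14. The flanking medians of the other members were -0.09 for Ezh2, -0.06 for Aebp2, -0.02 for Eed and Mtf2, and -0.005 for Jarid2. Ring1 had 0.02, Rnf2 0.03, Pcgf6 0.09 and Suz12 0.11. The part of such neighbourhoods in the members' changes was not tested. One of the neighbours that overlap Kdm2b, Rnf34 on the opposite strand, was higher at 0.14 in the authors' deposited table (adjusted p = 0.00441). Rnf2 and Mtf2 also overlap a gene of the opposite strand, Trmt1l at 0.09 (adjusted p = 0.0989) and Tmed5 at -0.06 (adjusted p = 0.383) in the same table. The libraries are stranded, but how strand was used in the counting is unknown here, so reads of such pairs may be mixed.

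Rnf2 and Ring1 encode the paralogous H2A ubiquitin ligases of PRC1. Rnf2, on chromosome 1 from 151458004 to 151500955 (minus strand), had a mean of 130 CPM and a log2 fold change of -0.21 (95% interval -0.28 to -0.14, adjusted p = 1.69e-08, authors' deposited table), a change of -13.6%. Changes of that size or more were seen in 19.4% of the 299 genes of like level. Ring1, on chromosome 17 from 34020792 to 34024680 (minus strand), had a mean of 6.90 CPM and stood at 0.02 (95% interval -0.15 to 0.19, adjusted p = 0.874, authors' deposited table). The interval of Ring1 runs from -9.92% to 13.9%, the widest of the 10 members. The difference between Rnf2 and Ring1 was not tested. Per kilobase of exon, Rnf2 was 14.8 times as abundant as Ring1.

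The PRC2 core fell in part. Eed, on chromosome 7 from 89954654 to 89980983 (minus strand), encodes the subunit that binds the trimethyl mark; it had a mean of 261 CPM and a log2 fold change of -0.16 (95% interval -0.24 to -0.09, adjusted p = 6.34e-05, authors' deposited table). Ezh2, the methyltransferase gene on chromosome 6 from 47530139 to 47595341 (minus strand), had a mean of 153 CPM and was at -0.13 (95% interval -0.20 to -0.06, adjusted p = 0.00102). Suz12, on chromosome 11 from 79993106 to 80034123 (plus strand), encodes the scaffold subunit; it had a mean of 351 CPM and stood at 0.08 (95% interval 0.00 to 0.15, adjusted p = 0.0776, authors' deposited table), which did not pass. These sizes are common: 26.4% of genes of like level changed by at least as much as Eed, and 37.8% by at least as much as Ezh2. Chromosome 11 as a whole was shifted, with a median of 0.07 over 808 genes, and Suz12 stood at 0.00 when that median was subtracted.

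The accessory subunits of PRC2 divide it into PRC2.1, with a Polycomb-like protein such as MTF2, and PRC2.2, with JARID2 and AEBP2. Jarid2, on chromosome 13 from 44729474 to 44921643 (plus strand), had the highest mean of the 10, 635 CPM, and a log2 fold change of -0.20 (95% interval -0.27 to -0.13, adjusted p = 2.31e-07, authors' deposited table), a change of -12.7%. Its partner Aebp2, on chromosome 6 from 140622663 to 140678472 (plus strand), had a mean of 108 CPM and stood at -0.01 (95% interval -0.08 to 0.06, adjusted p = 0.834). Mtf2, on chromosome 5 from 108065674 to 108109004 (plus strand), had a mean of 391 CPM and stood at -0.04 (95% interval -0.12 to 0.04, adjusted p = 0.409, authors' deposited table). The interval of Aebp2 spans -5.40% to 4.24% and that of Mtf2 -7.84% to 2.64%. Both end short of the -12.7% of Jarid2, although the differences between these genes were not tested.

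Pcgf6, on chromosome 19 from 47033617 to 47050906 (minus strand), defines the variant complex PRC1.6, which holds germline genes silent in ES cells. It was the 1 member called higher, with a mean of 58.1 CPM and a log2 fold change of 0.11 (95% interval 0.03 to 0.19, adjusted p = 0.0163, authors' deposited table). The call was lost when the median of its chromosome (adjusted p = 0.0591) or of genes of like level (adjusted p = 0.0727) was subtracted; over the alternatives that change its adjusted p, the range was 0.0164 to 1. Of its neighbours in level, 47.2% changed by at least as much.

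**Figure D2:**
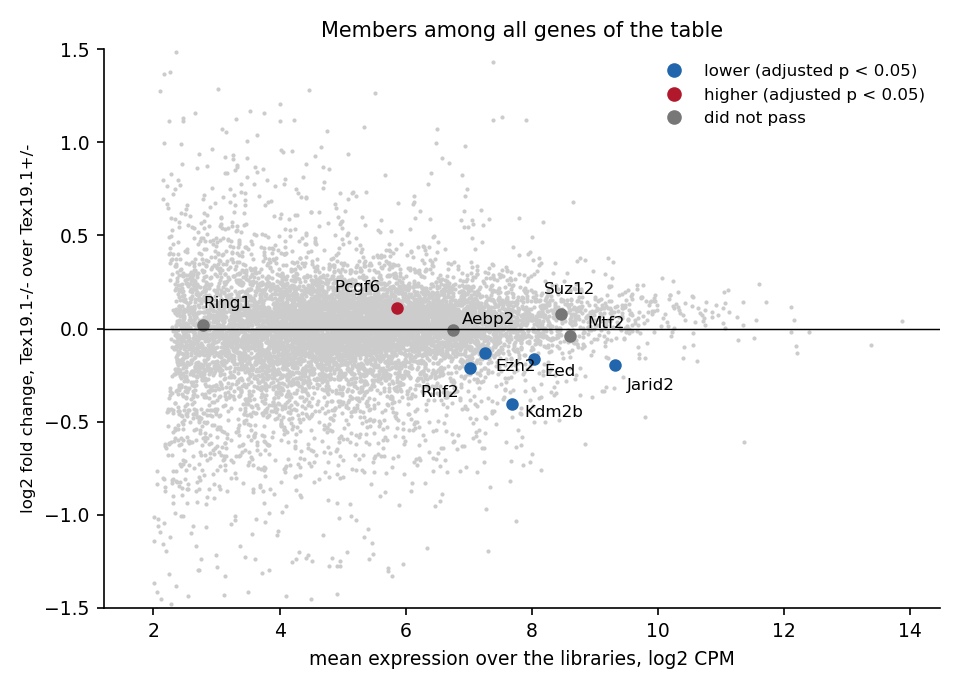
Mean expression (x axis, log2 CPM) against log2 fold change (y axis) for the genes of the authors' deposited table (grey), with the 10 Polycomb genes coloured by call; 46 genes beyond 1.5 in size are not drawn. Kdm2b at -0.41 lies lowest of the 10, and 17 of the 299 genes of like level changed by at least as much.

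Levels per kilobase of exon set the members in order. Suz12 at 71.0 CPM per kb, Mtf2 at 68.6, Eed at 68.1 and Jarid2 at 65.3 were close together, followed by Rnf2 at 31.5, Ezh2 at 22.9, Kdm2b at 18.9, Pcgf6 at 11.6, Aebp2 at 11.0 and Ring1 at 2.13. These are means over both genotypes with no spread, so neighbours in this order cannot be separated. They also depend on the exons assumed. By the longest transcript of each gene, Eed came first at 126 CPM per kb, before Mtf2 at 96.3, Suz12 at 80.3 and Jarid2 at 76.0, and Ezh2 at 54.9 stood above Rnf2 at 40.6. The ratio of Ezh2 to Ezh1 was then 7.11 in place of 5.25, and that of Jarid2 to Aebp2 was 4.17 in place of 5.95.

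**Figure D3:**
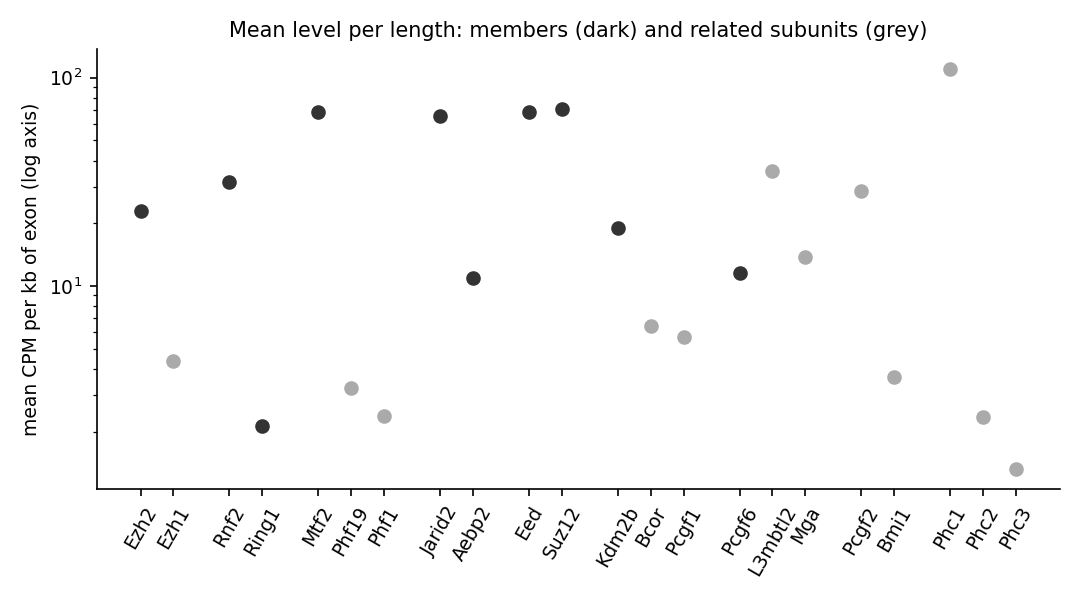
Mean level per kilobase of exon (log axis) for the 10 Polycomb genes (dark points) and related subunits (grey points), 1 point per gene and no error, since the table holds 1 mean per gene. Rnf2 at 31.5 lies well above its paralog Ring1 at 2.13, and Ezh2 at 22.9 above Ezh1 at 4.36.

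The other subunits of the complexes went both ways. Of 45 listed, 41 were measured; 12 of them were higher, 9 lower and 20 did not pass in the authors' deposited table, a share of 51.2% beside the 51.7% of all genes. Their median log2 fold change was 0.03. With each gene set against genes of like level the split became 10 higher and 12 lower, and with chromosome medians subtracted 12 and 12, so the balance of directions depends on the centring.

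Among the other PRC2 genes, 2 of 8 were higher, 1 lower and 5 did not pass (37.5% called, beside 51.7% of all genes), with a median of 0.03. That split became 1 and 2 against genes of like level, and 2 and 2 with the chromosome median or the lowess trend (GC content, then length) removed. Ezh1, which encodes the less active paralog of EZH2, was higher at 0.35 (adjusted p = 9.25e-12, authors' deposited table), or 27.5% more transcript, while Ezh2 was lower. Ezh1 lies on chromosome 11 and stood at 0.28 with the median of that chromosome subtracted. Lcor, a gene of low level (6.74 CPM) that also encodes a PRC2.1 subunit, was lower at -0.43 (adjusted p = 5.96e-06), and Rbbp4, the histone chaperone gene, higher at 0.11 (adjusted p = 0.0117, authors' deposited table). The Polycomb-like paralogs of Mtf2 did not pass, with Phf1 at -0.14 and Phf19 at 0.05, nor did Epop at -0.07, Rbbp7 at 0.03 or Lcorl at 0.03 in the authors' deposited table.

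Canonical PRC1, which reads the PRC2 mark through CBX proteins, had 4 of 9 measured genes lower, 2 higher and 3 that did not pass. The median was -0.05 and the share called 66.7%, beside 51.7% of all genes. In the authors' deposited table Cbx7, the main CBX gene of ES cells, was higher at 0.18 (adjusted p = 5.10e-06) and Cbx6 lower at -0.15 (adjusted p = 0.00056), with Cbx2 at -0.05 not passing. The 3 polyhomeotic genes, whose products polymerise canonical PRC1, were split: Phc1 was higher at 0.18 (adjusted p = 1.40e-05), and Phc2 at -0.19 (adjusted p = 0.00506) and Phc3 at -0.25 (adjusted p = 3.95e-06) were lower in the authors' deposited table. Phc1 is by far the most abundant of them, with 110 CPM per kb beside 2.36 for Phc2 and 1.33 for Phc3. The PCGF genes of canonical PRC1 were Bmi1, lower at -0.15 (adjusted p = 0.0304), and Pcgf2, which stood at 0.04 (adjusted p = 0.437). Cbx8 and Scml2 were not analysed here.

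Within PRC1.1, the complex that KDM2B recruits, the subunit genes moved in opposite directions. Bcor, the corepressor gene, was higher at 0.40 (adjusted p = 1.41e-21) and Skp1a higher at 0.40 (adjusted p = 3.70e-21, authors' deposited table), changes of about the size of the fall in Kdm2b. The deubiquitinase gene Usp7 was higher at 0.10 (adjusted p = 0.0281), and neither Pcgf1 at -0.10 (adjusted p = 0.315) nor Bcorl1 at -0.13 (adjusted p = 0.184) passed. Bcor stood at 0.34 and Skp1a at 0.33 with the medians of their chromosomes, X and 11, subtracted. SKP1 also serves in cullin ubiquitin ligases. As deposited, 3 of the 6 PRC1.1 genes were higher and 1 lower, 66.7% called beside 51.7% of all genes. With chromosome medians subtracted, this split became 3 and 2. Against genes of like level it was 2 and 1, where Usp7 stood at 0.03 and lost its call.

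In PRC1.6, 3 of 10 measured genes were higher, 1 lower and 6 did not pass, 40% called beside 51.7% of all genes. The split became 2 and 3 against genes of like level and 3 and 0 with the lowess trend (GC content, then length) removed. Beside Pcgf6, Cbx3 was higher at 0.18 (adjusted p = 8.90e-05) and L3mbtl2 at 0.14 (adjusted p = 0.00037), and Mga, which encodes the DNA-binding scaffold, was lower at -0.12 (adjusted p = 0.00929, authors' deposited table). Max at -0.03 and E2f6 at -0.10, which encode the other DNA-binding subunits, did not pass (adjusted p = 0.502 and 0.0619). For PRC1.3 and PRC1.5, 3 of 9 were higher, 2 lower and 4 did not pass, 55.6% called beside the same background. Auts2, at 13.2 CPM, had the largest rise of all the subunits, 0.51 (adjusted p = 2.20e-14, authors' deposited table), followed there by Fbrsl1 at 0.24 and Pcgf5 at 0.21, while Pcgf3 at -0.12 and Dcaf7 at -0.11 were lower. Rybp, which encodes a subunit common to variant PRC1 complexes, was lower at -0.28 (adjusted p = 8.76e-14), in the same direction as Rnf2.

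**Figure D4:**
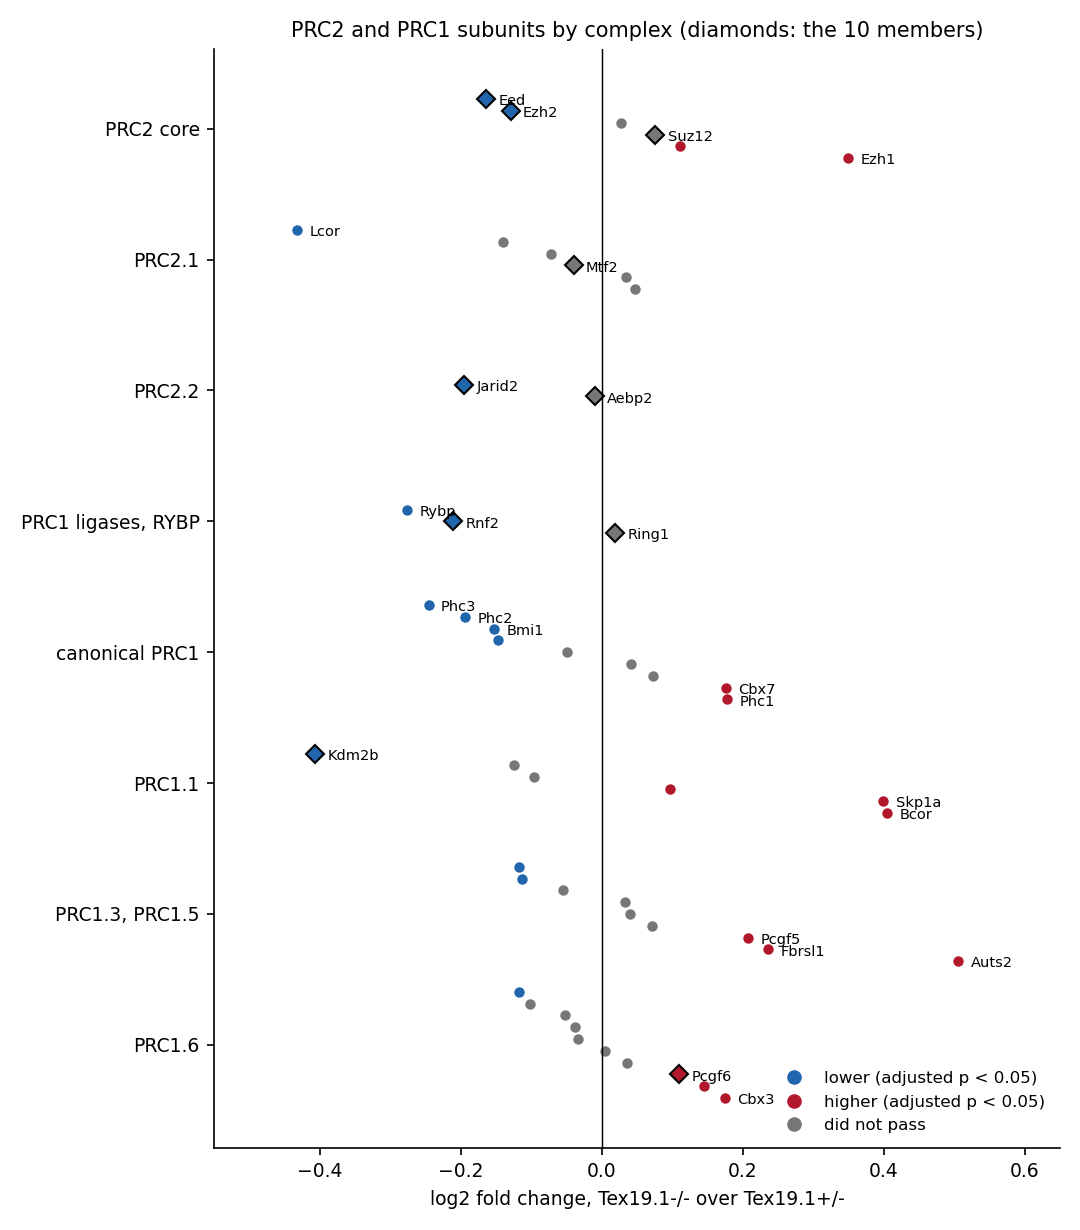
Log2 fold changes of the 51 measured PRC2 and PRC1 subunit genes (x axis) by complex (rows), coloured by call, with diamonds for the 10 members and names for members and for changes over 0.15. The values run from -0.43 for Lcor to 0.51 for Auts2, and Kdm2b at -0.41 shares its row with Bcor and Skp1a at 0.40.

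Of the genes whose products remove Polycomb marks or belong to the BAP1 deubiquitinase complex, 3 of 14 measured were lower, 2 higher and 9 did not pass, 35.7% beside the background of 51.7%. The largest fall was that of Uty, the Y-linked relative of the H3 demethylase gene Kdm6a, at -2.83 in the authors' deposited table, where Kdm6a itself stood at 0.01 (adjusted p = 0.878). The Y-linked genes Eif2s3y at -2.64 and Ddx3y at -2.37 fell alongside it there. The 5 Y-linked genes of the table had a median of -2.37, and Uty stood at -0.47 with that median subtracted. Without Uty, 2 of 13 were lower and 2 higher, or 4 and 2 against genes of like level. Kdm6b, the other demethylase gene, was lower at -0.25 (adjusted p = 9.36e-07) and Foxk1 lower at -0.29 (adjusted p = 5.98e-11), and Asxl1 at 0.12 (adjusted p = 0.00108) and Kdm1b at 0.15 (adjusted p = 0.0142) were higher in the authors' deposited table. The opposing trithorax-type list had 4 of 12 lower, 1 higher and 7 that did not pass, with a median of -0.08. The share called was 41.7%, beside 51.7% of all genes. Against genes of like level the split became 7 lower and 1 higher. It became 6 and 1 with chromosome medians subtracted, and 2 and 1 with the lowess trend (GC content, then length) removed. Kmt2c, which encodes an enhancer H3 methyltransferase, was lower at -0.51 (adjusted p = 4.85e-24), Ash1l at -0.25 (adjusted p = 1.53e-06), Setd2 at -0.12 (adjusted p = 0.00497) and Nsd1 at -0.09 (adjusted p = 0.0434), and Dpy30 was higher at 0.17 (adjusted p = 1.70e-05, authors' deposited table).

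Of 88 listed genes that Polycomb complexes are known to occupy in ES cells, 67 are absent from the table. It holds no gene under 3.52 CPM, but why each of these genes is absent is unknown here. Of 68 developmental targets listed, 10 were measured. Among them 5 were lower, 4 higher and 1 did not pass, a share called of 90% beside the 51.7% of all genes. A gene near that floor can enter through the genotype in which it is high, so these counts describe the measured genes and not the targets as a whole. In the authors' deposited table the endoderm regulators Gata6 at -2.32, Gata4 at -2.08 and Sox7 at -1.56 and the cell cycle inhibitor gene Cdkn1c at -1.27 were lower, while the neural genes Pax6 and Neurod1, both at 0.87, were higher. Each of these 6 changes was larger than that of any member. Of 10 endoderm markers, 3 of them these same regulators, 8 were measured and all 8 were lower, between -2.93 and -1.19 in the authors' deposited table, while Sox17 and Foxa2 were not analysed here. In bulk RNA fewer cells of a type and less RNA per cell cannot be told apart, and the part of endoderm-type cells in the fall of these targets was not tested.

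Of 20 germline genes that PRC1.6 is known to silence, 11 were measured; 6 were lower, none was higher and 5 did not pass. The share called, 54.5%, is near the 51.7% of all genes, and the limit on entry to the table holds here too, so the count is no result about these targets. Stra8, a gene of meiotic entry, was lower at -1.94, and the meiotic genes Hormad1 at -1.20, Zcwpw1 at -0.94 and Stag3 at -0.77 were lower too in the authors' deposited table. Mael at -0.41 and Ddx4 at -0.18, genes of the germline small RNA pathway, complete the 6, with an adjusted p of 0.00394 or less each.

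**Figure D5:**
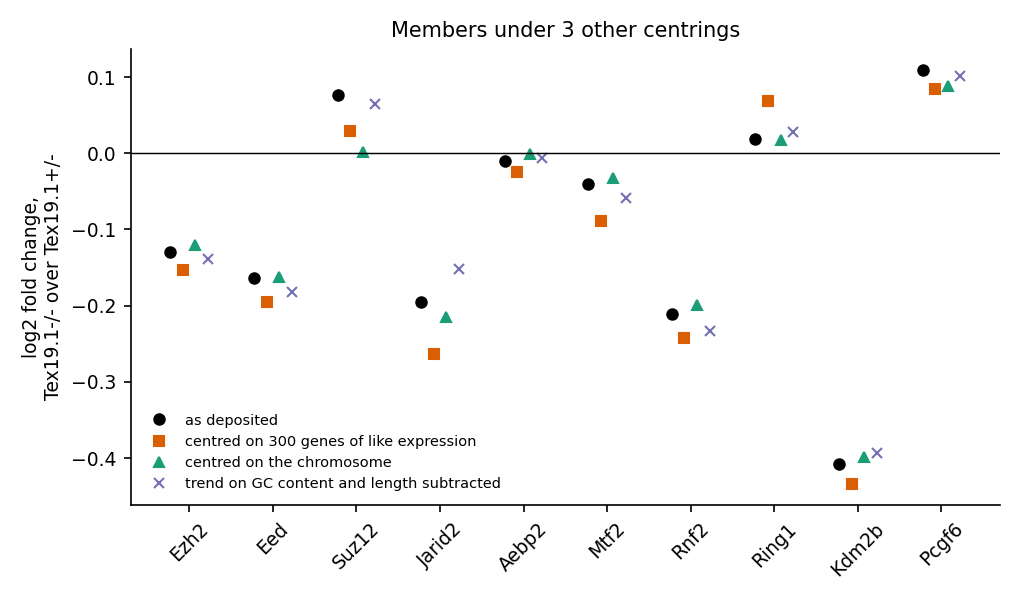
Log2 fold change of each of the 10 Polycomb genes as deposited (circles) and after 3 other centrings (squares, triangles and crosses). The 5 genes that were lower stay at -0.12 or below in each, while Suz12 ranges from 0.00 to 0.08.

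ES cell markers were present at high level, all 10 of 10 listed, from 147 CPM for Fbxo15 to 1566 CPM for Dppa5a. Of these 10, 4 were higher, 3 lower and 3 did not pass, between -0.20 and 0.46 in the authors' deposited table. The share called was 70%, beside 51.7% of all genes, and the split was 3 and 4 against genes of like level. The falls of Kdm2b at -0.41 and Rnf2 at -0.21 were larger than that of any of these markers, of which Klf4 at -0.20 was lowest. By size of change, Fbxo15, higher at 0.46, exceeded Kdm2b. The falls of Ezh2, Eed and Jarid2 were of like size to those of the markers that fell. Of 8 fibroblast markers 3 were measured; Fbn1 at -0.76 and Vim at -0.33 were lower and Fn1 at 0.23 was higher in the authors' deposited table, and their part in the members' changes was not tested. Col1a1, Col1a2, Col3a1, Thy1 and Postn were not analysed here. Of 7 trophoblast markers 2 were measured, with Tfap2c higher at 0.86 and Eomes at -0.09 not passing in the authors' deposited table.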

How the data were processed

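RNA was extracted with TRIzol, and stranded mRNA libraries (TruSeq) were sequenced in pairs on a HiSeq instrument, per the labels' protocols. Trim Galore (0.4.1), TopHat2 (2.1.0), HTSeq (0.11.2), edgeR and the build mm10 are listed, without roles or order, in the submitters' processing notes. The annotation, the use of strand, any filter and the model tested are unknown here. The authors deposited 1 log2 fold change, 1 mean log2 CPM and a p-value with its false discovery rate for each of 10128 genes, per the file headers. The adjusted p-values cover all genes of the table and equal Benjamini-Hochberg values recomputed here within 6.7e-05. Calls are those of the authors' own test; no model was refitted, and the depth per library is unknown.

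The members and gene lists were chosen with earlier results of these data known. Genes that could be named are all members, Tex19.1, any measured subunit, and up to 6 genes with the smallest p from each list of antagonists and targets; Kdm6a, Eif2s3y, Ddx3y, the overlapping genes and the marker genes were named after their values were seen. Standard errors were taken as the fold change over the normal deviate of the two-sided p, limited to 38. The code was run on simulated normal errors, where recovery of the errors follows from the formula. How well these errors describe the authors' own p-values was therefore not tested. Centred values (300 genes of like mean level; chromosome; lowess of span 0.3 on GC content, then length) were retested with these errors and Benjamini-Hochberg adjustment in Python 3.11.15 (scipy 1.17.1, statsmodels 0.14.6). Positions and exon lengths come from GENCODE M21 on GRCm38, the assembly mm10 names, with 9587 symbols matched directly, 134 by older symbols and 407 unmatched. Promoter windows come from RefSeq.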

Additional observations from a re-analysis of the deposited data

How the results depend on the processing

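No paired analysis was possible because the authors' deposited table holds no value per library, and for the same reason no library could be left out. Of the 30 recentred values of single members, 28 kept their direction and side of the threshold, 2 (both of Pcgf6) no longer passed and none reversed. The other 39 values keep the deposited fold change, so only the call could change, and 8 no longer passed. The 6 members called became 3 under Bonferroni adjustment (Kdm2b, Rnf2 and Jarid2) and 2 with a minimum log2 change of 0.2 (Kdm2b and Rnf2). Of all 10128 genes, 2413 passed under Bonferroni adjustment and 2957 with that minimum change. The counts of members and of other Polycomb genes are therefore no result about either as a class. The 1 higher and 5 lower became 0 and 5 when genes of like level or the chromosome were used for centring, and when the adjusted p had to be under 0.01. Of 67 other Polycomb genes measured, 31 were called, 46.3% beside the 51.7% of all genes. Bonferroni adjustment left 15 of them and the minimum change 14. The split of 15 higher and 16 lower became 13 and 24 against genes of like level and 16 and 22 against the chromosome. Of 21 target genes measured, 15 were called, 71.4% beside the 51.7% of all genes. Low genes can enter the table through the genotype in which they are high, so this count is no result about the targets. The 15 called became 6 among genes of at least 16 CPM, where 7 of the 21 were tested. The other settings kept each of these 3 counts within 1.5 times. Precision rests on the authors' p-values alone, and Ring1, at 6.90 CPM, has the widest interval of the members.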
